A study of Mus musculus with 2 samples.

Results

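The erythropoietin receptor, its kinase, the STAT5 factors and their SOCS feedback genes were followed in mouse erythroid cells after depletion of the co-repressor ETO2. The 9 genes Epor, Jak2, Stat5a, Stat5b, Socs1, Socs2, Socs3, Cish and Pim1 were taken by exact match of the array's gene name, with every non-control probe of each. They were 9 of 27745 gene names on the array and had 14 of its 41174 probes. Of the 9 genes, 5 had 1 probe, 3 had 2 probes and Stat5b had 3.

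The study measured the RNA of G1E-ER-GATA-1 cells with 2 Agilent microarrays read in a pair of colours. The parent line, G1E, is made of immortal erythroid progenitors without the transcription factor GATA-1, and the derivative used here carries GATA-1 fused to the ligand-binding domain of the oestrogen receptor, so that β-estradiol switches GATA-1 on and the cells mature. Each array set total RNA from cells given ETO2 siRNA, labelled with Cy3, against total RNA from cells given control siRNA, labelled with Cy5. ETO2 is the product of Cbfa2t3, a co-repressor that is recruited to DNA with GATA-1, TAL1 and their partners.

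Both groups had the GATA-1-null background with the GATA-1 fusion, and both were exposed to β-estradiol for 24 h after transfection, so the only labelled difference was the siRNA. All RNA came from this 1 line, and the labels do not say whether the 2 arrays held separate cultures. The p-values set each ratio against the spread between these 2 arrays, mostly as pooled over all kept probes. That spread may be technical. The dyes were not swapped, and an effect of the dye on a single probe and an effect of the siRNA cannot be told apart. Bulk RNA also cannot tell fewer cells of a type from less RNA per cell.

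One field of the labels calls the cells ES cells and another calls the tissue erythroid. All 8 erythroid defining markers reported here (Hbb-b1, Hba-a1, Alas2, Klf1, Epb4.2, Slc4a1, Ahsp and Rhag) were well above background in both channels of both arrays. The pluripotency factors Nanog, Sox2 and Zfp42 were well above background in none of the 4 channel readings. Pou5f1 was above it in 2 of the 4 readings, while Dppa4, Dppa5a, Tdgf1 and Esrrb, the other 4 of the 8 embryonic stem cell markers on the array, were above it in all 4 and none of them was called different.

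Erythropoietin binds its receptor on the surface of erythroid progenitors and brings together the bound JAK2 kinases, which phosphorylate the receptor's tail and then STAT5A and STAT5B. The STAT5 proteins pair, enter the nucleus and bind DNA at elements of the form TTCNNNGAA, where they raise transcription of survival and growth genes. Among the genes they raise are Cish and members of the SOCS family, whose proteins bind the receptor or JAK2 and damp the signal, which makes their RNA a common readout of cytokine signalling. In the erythroid lineage this pathway protects progenitors from death, and GATA-1 is known to drive the receptor gene itself.

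Promoter sequence of the members was read from RefSeq (GRCm38.p6), from 250 bases before to 50 bases after each start site, and was found in 11 windows for 8 of the 9 genes, all but Socs2. Both strands were searched for the STAT5 element TTCNNNGAA and for the GATA forms AGATAA and TGATAA. The stretches below are shown because they hold the matches in the windows of the receptor and the feedback genes, with the match in capitals. The stretch just before the Socs1 start, which held no match, is set beside them because Socs1 changed most. Each is printed 5′ to 3′ on the strand of the gene.
Epor, chr9:21963577-21963656, minus strand: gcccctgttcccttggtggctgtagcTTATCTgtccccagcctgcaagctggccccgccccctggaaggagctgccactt
Cish, chr9:107296579-107296678, plus strand: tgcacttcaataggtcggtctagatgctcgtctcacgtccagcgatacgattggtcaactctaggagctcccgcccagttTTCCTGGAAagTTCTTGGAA
Socs3, chr11:117969467-117969546, minus strand: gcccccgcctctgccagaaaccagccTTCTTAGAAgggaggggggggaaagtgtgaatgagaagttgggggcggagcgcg
Socs1, chr16:10785537-10785616, minus strand: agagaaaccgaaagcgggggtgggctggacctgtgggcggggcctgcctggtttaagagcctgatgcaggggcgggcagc

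The Cish window held the STAT5 element at 2 places, from base 1 to 9 and from base 12 to 20 counted from the start site. The Socs3 window held it once, from position -154 to -146, where negative positions lie before the start. The Epor window held AGATAA once, read on the opposite strand, from -54 to -49. TGATAA was in none of the 11 windows, and 8 windows held none of the 3 motifs. Over all 32851 promoter windows of this length, 8.3% held TTCNNNGAA, 11.2% held AGATAA and 9.05% held TGATAA, so each of these matches is of a kind that many genes have.

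The probes are 60 bases long. The first 30 bases of those that carry the results are given here, for the receptor, for the feedback genes and for the 3 Stat5b probes, which did not give 1 value. Probes of a gene are numbered by brightness, and no pair of probes of a member shared a run of 12 bases on either strand.
Epor probe: gaacgggattggtgaagccatacttaaagt
Stat5b probe 1: tttagtgtcgaggcagattagtatatagcc
Stat5b probe 2: tgcttggaagtttgactctcaggagagaat
Stat5b probe 3: ctgctagtaatcctgacccactacttgaaa
Socs1 probe: gagggtctctggcttcatttttctgctgtg
Socs2 probe 1: aggtgtgaagatgtagctaggtattttaaa
Socs2 probe 2: tgtcataggagaaactacatctgggaaatt
Cish probe: actttagaaaacaagtgttagaacacaaga

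The feedback genes Socs1, Socs2, Cish and Socs3 fell after ETO2 siRNA, as did 1 of the 3 Stat5b probes, while Epor rose. Jak2, Stat5a, Pim1 and the other Stat5b probes did not pass the test. Values are log2 ratios of ETO2 siRNA over control siRNA after loess normalization within each array, given as the mean ± SD of 2 arrays, so that a ratio of -1 is a level 2-fold lower than the control. A probe was called at an adjusted p under 0.05 by limma (two-sided, Benjamini-Hochberg over all kept probes).

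Of the 14 member probes, 6 were called lower (42.9%) and 1 was called higher (7.14%), with a median log2 ratio of -0.13. Among all 24484 kept probes, 20.5% were called lower and 18.6% were called higher, with a median of -0.01. Counting each gene once by its brightest probe, 5 of the 9 genes were lower and 1 was higher, with a median of -0.27. Stat5b was among the 5 by its brightest probe only, and its other probes were not called. Over the whole array with 1 probe per gene, 3696 of 16678 were lower and 3045 higher, with a median of -0.02. All 14 member probes were well above background in both channels of both arrays, and none was saturated or marked as an outlier spot.

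The siRNA target was lowered modestly. Cbfa2t3 RNA stood at 74.6% of the control at its first probe (log2 ratio -0.42 ± 0.05, n = 2, limma adjusted p = 1.15e-04) and at 85.6% at its second (-0.23 ± 0.0046, adjusted p = 0.0109). Before normalization the background-corrected Cy3 signal of the median kept probe was 59.9% of its Cy5 signal on array 1 and 53.5% on array 2. These are medians of the ratios of single probes. The unscaled signals below are to be read against that level, which takes no account of brightness.

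**Figure D1:**
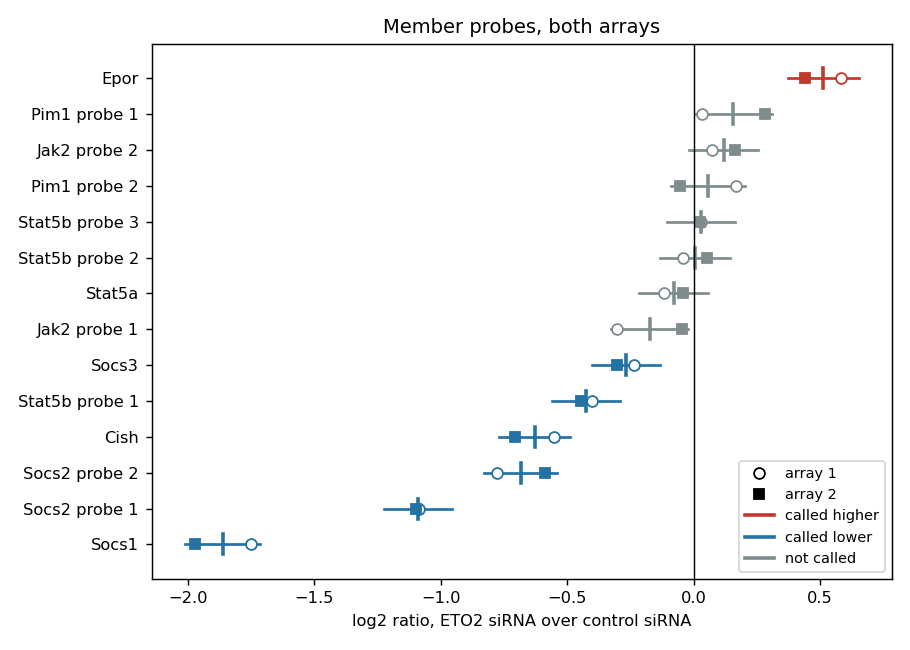
The horizontal axis gives the log2 ratio of ETO2 siRNA over control siRNA for each of the 14 member probes, with 1 point per array and a bar for the mean. Socs1, Socs2 and Cish lie left of 0 on both arrays, from -1.97 to -0.55, and Epor lies right of 0 on both.

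Epor encodes the erythropoietin receptor. Its net signal on array 1 was 14730 with ETO2 siRNA and 18043 with control siRNA, and on array 2 it was 13488 and 20824. These were 81.6% and 64.8% of the control, in each case above the median probe of that array. After normalization the log2 ratios were 0.58 and 0.44. Epor rose 1.43-fold (0.51 ± 0.10, n = 2, limma adjusted p = 2.68e-05), which placed it 520th from the highest of the 24484 kept probes. The size of the Epor ratio depended on the scaling: with Agilent's processed signals it was 0.38 and missed the threshold (limma adjusted p = 0.0521), and with median centring in place of loess it was -0.08, where the median kept probe lay at -0.28. Erythroid markers moved with it: with saturated probes left out, all 5 remaining markers were called higher, with a median log2 ratio of 1.04. Of the full 8, Hbb-b1 and Hba-a1 were saturated in both channels and Ahsp in the control channel, so their ratios are not read as a change. With these included, all 8 were called higher, and with median centring 6 were higher and 1 was lower. The median over the 8 was 1.04 with loess, 0.65 with a running median over brightness and 0.37 with median centring. The summed net signal of the 5 unsaturated markers was 78915 and 75210 in the ETO2 siRNA channels and 64376 and 64998 in the control channels. That excess lay in Slc4a1, at 44284 and 40797 against 11497 and 11339. Klf1 went the other way, at 27273 and 26006 against 45067 and 45678, and Rhag was split, at 4488 and 5550 against 5689 and 5350. Alas2 and Epb4.2 lay above the control on both arrays but were far dimmer than Slc4a1. The part of the erythroid markers in the Epor result was not tested.

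Jak2 encodes the kinase bound to the receptor, and its probes lay on opposite sides of 0. Probe 1 had net signals of 2817 and 6150 on array 1 and 2959 and 6001 on array 2 (ETO2 siRNA first), and log2 ratios of -0.30 and -0.04. Its mean of -0.17 ± 0.18 did not pass the test (limma adjusted p = 0.0681, 95% interval -0.33 to -0.02 before adjustment). Probe 2 was dim, with net signals of 75.4 and 111 on array 1 and 74.0 and 112 on array 2, and its log2 ratios were 0.07 and 0.16. Its mean of 0.12 ± 0.06 did not pass either (adjusted p = 0.158). The arrays differed at probe 1 by more than its mean, so no direction is given for Jak2.

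Stat5a and Stat5b are neighbouring genes for closely related transcription factors that JAK2 activates. The Stat5a probe had net signals of 2269 and 4322 on array 1 and 2648 and 5326 on array 2, and log2 ratios of -0.12 and -0.04. Its mean was -0.08 ± 0.06 (limma adjusted p = 0.355), with a 95% interval from -0.22 to 0.06, so with loess a fall of up to 0.22 on the log2 scale lies within the error. With the processed signals it stood at -0.27 (limma adjusted p = 0.0943). With median centring it stood at -0.58 and was called lower, where the median kept probe lay at -0.28.

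Stat5b was measured by 3 probes that differed. Probe 1, the brightest, had net signals of 10607 and 25828 on array 1 and 9751 and 27929 on array 2, and log2 ratios of -0.40 and -0.45. By this probe Stat5b fell to 74.5% of the control (-0.43 ± 0.03, n = 2, limma adjusted p = 1.05e-04), a call that was lost with the processed signals (-0.36, adjusted p = 0.0551). Probe 2 had net signals of 162 and 273 on array 1 and 171 and 296 on array 2, and its ratios of -0.04 and 0.05 gave a mean of 0.0061 (adjusted p = 0.952). Probe 3, designed to a cDNA clone, had net signals of 124 and 195 and then 119.5 and 211, with ratios of 0.03 and 0.03 (adjusted p = 0.768). Probe 1 lay 0.43 below probe 2 and 0.45 below probe 3 in the mean log2 ratio, and its arrays did not overlap with theirs. Where the probes lie in the Stat5b transcripts was not determined, so the fall is a value of 1 probe and not of the gene.

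**Figure D2:**
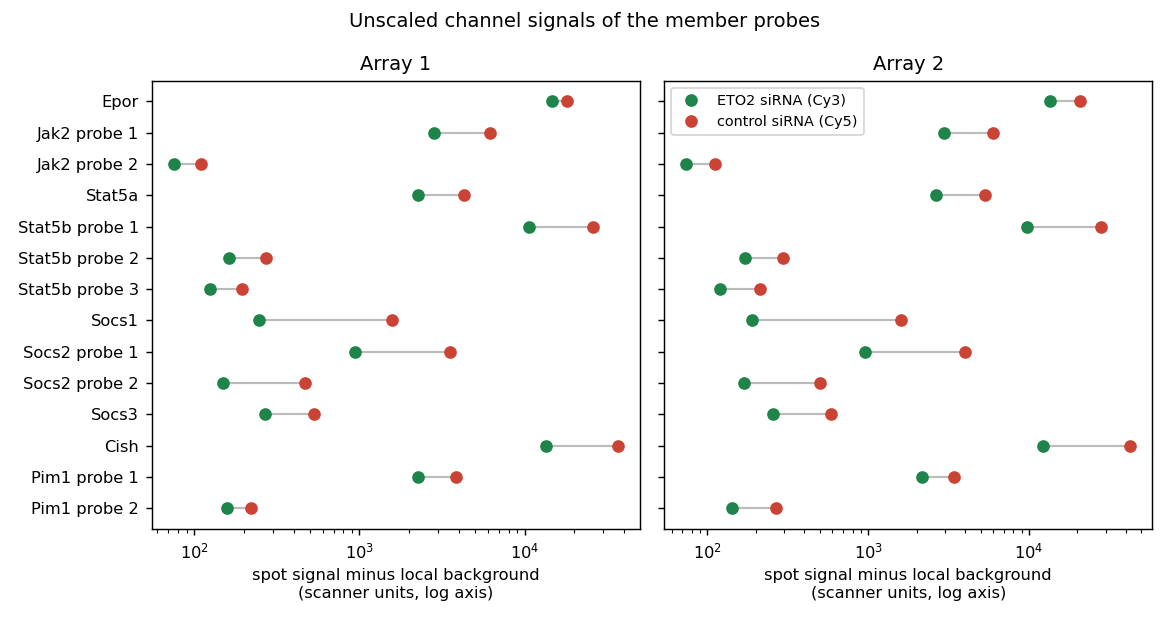
The net signal of each member probe in each channel is drawn on a log axis, with 1 point per array for ETO2 siRNA and for control siRNA, before any scaling between dyes. The ETO2 siRNA signal lies below the control signal at all 14 probes, with the widest gap at Socs1 (15.7% and 11.9% of the control). On array 1 the gap was narrowest at Epor (81.6%), and on array 2 it was 64.8% at Epor and 66.1% at Jak2 probe 2.

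Socs1 encodes a suppressor that binds active JAK kinases and blocks them. Its net signal with ETO2 siRNA was 248 on array 1 against 1574 with control siRNA, and 189 against 1592 on array 2. The log2 ratios were -1.75 and -1.97, both far below every other member probe. Socs1 RNA was 3.64-fold lower (-1.86 ± 0.16, n = 2, limma adjusted p = 1.79e-10), and only 1 of the 24484 kept probes had a lower ratio.

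Socs2, another family member that binds cytokine receptors and limits growth hormone signalling, was lower at both of its probes. Probe 1 had net signals of 939 against 3524 on array 1 and 954 against 3975 on array 2, with log2 ratios of -1.09 and -1.10. It fell 2.13-fold (-1.09 ± 0.0084, n = 2, limma adjusted p = 1.14e-08) and ranked 41st from the lowest of the kept probes. Probe 2 gave 150 against 472 and 169 against 499, with ratios of -0.78 and -0.59. By that probe Socs2 was 1.61-fold lower (-0.68 ± 0.13, adjusted p = 2.34e-06). The probes shared the direction, but their sizes differed by 0.41 on the log2 scale and their arrays did not overlap.

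Cish encodes CIS, the STAT5-induced protein that competes for the docking sites of the receptor. Net signals were 13456 against 36653 on array 1 and 12245 against 42594 on array 2, and the log2 ratios were -0.55 and -0.70. Cish was 1.55-fold lower (-0.63 ± 0.11, n = 2, limma adjusted p = 4.21e-06), 289th from the lowest of the kept probes. Its promoter window, shown above in part, held 2 matches to TTCNNNGAA. At least 1 match was held by 8.3% of all windows, and the share with 2 was not counted. Binding of STAT5 there was not measured, and a part of these matches in the fall was not tested.

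Socs3, which blocks JAK2 while bound to the receptor, changed least among the feedback genes that fell. Its net signals were 268 against 532 on array 1 and 256 against 592 on array 2, and the log2 ratios were -0.23 and -0.30. Socs3 was 1.20-fold lower (-0.27 ± 0.05, n = 2, limma adjusted p = 0.00387), and it missed the threshold with the processed signals (-0.22, adjusted p = 0.140).

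Markers of mast cells, basophils and eosinophils moved in part beside the lower feedback genes. Of 10 such markers 6 were kept, with 2 called lower, 1 called higher and a median log2 ratio of -0.11. That median was -0.50 with the processed signals, -0.30 with an offset of 0 and -0.08 with the running median. With median centring it was -0.14, where the median kept probe lay at -0.28. Hdc, which encodes the enzyme that makes histamine, fell most (-1.38 ± 0.11). The marker called higher was Mcpt4 (0.49 ± 0.05), whose second probe stood at 0.006. Both genes are named after their values were seen. The summed net signal of the 10 markers was 406 and 358 in the ETO2 siRNA channels and 1076 and 1024 in the control channels. Tpsb2, Tpsab1 and Ms4a2 were well above background in no channel. Of the granulocyte and macrophage markers 4 of 10 were kept, with 1 lower and a summed net signal of 231 and 215 against 345 and 341. Elane, Lyz2, Emr1, Itgam, Ngp and Camp were well above background in no channel. Lymphocyte markers gave 2 lower of 7 kept (451 and 406 against 779 and 849), with Rag1 in no channel, and megakaryocyte markers gave 1 lower and 2 higher of 8 kept (13200 and 13974 against 18478 and 22611), with Ppbp in no channel. The part of these cell types in the member results was not tested.

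Pim1 encodes a survival kinase that STAT5 induces, and neither of its probes passed the test. Probe 1 had net signals of 2259 against 3858 on array 1 and 2173 against 3435 on array 2, with log2 ratios of 0.03 and 0.28. Its mean was 0.16 ± 0.17 (limma adjusted p = 0.0907, 95% interval 0.01 to 0.31 before adjustment). Probe 2 was designed to a cDNA clone, and its strand and exon relative to the Pim1 transcript were not determined. It gave 158 against 220 and 142 against 269, with ratios of 0.17 and -0.05 and a mean of 0.06 ± 0.16 (adjusted p = 0.551). Neither interval reaches the fall of Cish.

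In the order of mean ratios from Socs1 to Epor there were 13 pairs of neighbouring probes, and in 5 pairs the values of the arrays did not overlap. Socs1 stood apart from Socs2 probe 1, which stood apart from Socs2 probe 2. Cish stood apart from Stat5b probe 1, and that probe from Socs3. At the upper end Epor stood apart from Pim1 probe 1. In the other 8 pairs, among them Socs2 probe 2 with Cish and all neighbours from Socs3 to Pim1, the arrays overlapped.

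**Figure D3:**
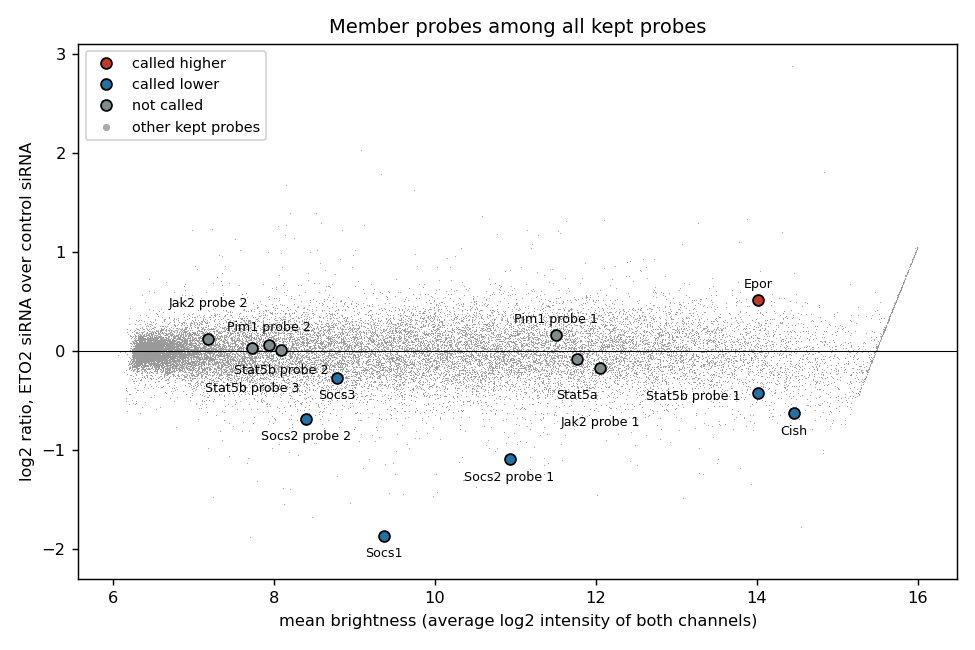
Each grey dot is 1 of the 24484 kept probes, with its mean brightness (average log2 intensity of both channels) on the horizontal axis and its mean log2 ratio of ETO2 siRNA over control siRNA on the vertical axis, and the 14 member probes are drawn larger. Epor and Stat5b probe 1 have the same brightness, 14.02, and lie on opposite sides of 0. The thin rising line of dots at the far right holds probes at the detector's ceiling, where no member lies.

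Because scaling within an array moves probes of like brightness together, Epor was also compared with Cish and with Stat5b probe 1 inside each array. These pairs were chosen after the values had been seen. Epor minus Cish was 1.14 on array 1 and 1.15 on array 2, with a mean of 1.14 ± 0.0074 log2 units. Epor minus Stat5b probe 1 was 0.99 and 0.89, with a mean of 0.94 ± 0.07. Over the ways of processing the arrays the first difference lay between 0.82 and 1.16 and the second between 0.73 and 0.94. Settings that change only the probe filter or the variance model cannot move these differences, and the deposited ratio table nearly repeats the processed signals, so these ranges rest on few separate ways of scaling. Such a difference shows unequal change and does not say which gene changed.

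**Figure D4:**
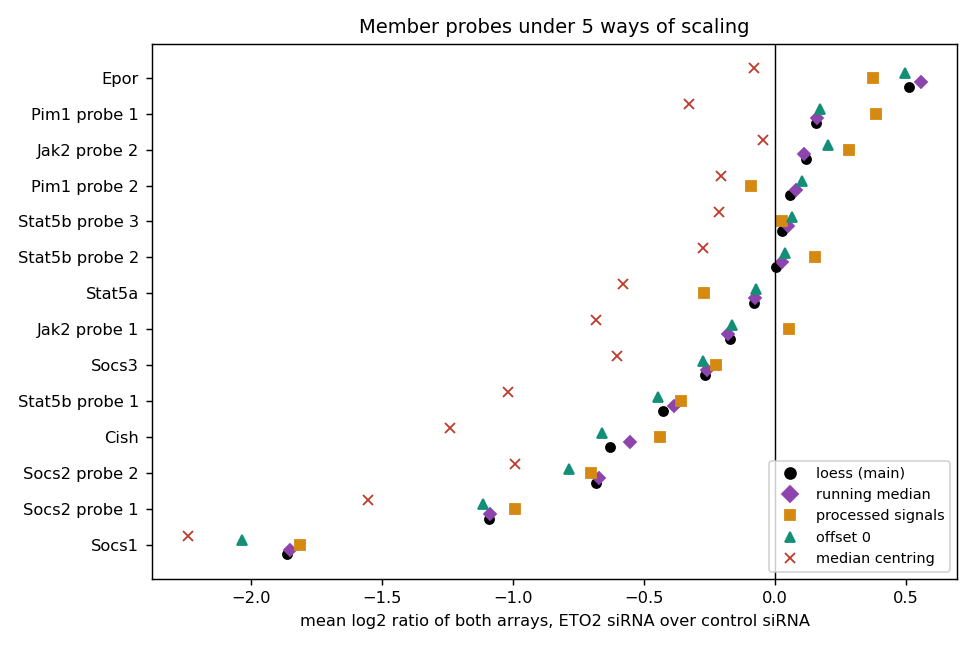
The log2 ratio of each member probe is plotted with loess, a running median over brightness, the processed signals, an offset of 0 and median centring. Socs1 (-2.24 to -1.81), Socs2 probe 1 (-1.55 to -0.99) and Cish (-1.24 to -0.44) stay below 0 throughout, while Epor runs from -0.08 with median centring to 0.56.

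The other genes of the pathway were taken from lists of textbook members and counted once each by the brightest kept probe. Their counts move with the scaling: with median centring none was higher and 7 of 7 other JAKs and STATs, 4 of 5 SOCS and PIM members, 12 of 14 negative regulators and 16 of 19 adaptor and branch genes were lower. Under it the receptors had 1 higher and 6 lower of 10, and the STAT5 targets 1 higher and 13 lower of 15. With the processed signals, Stat2, Jak3, Socs7, Pias4, Akt1, Lyn, Il5ra, Csf2rb2 and Osm of the genes named here missed the threshold. Each count is to be read beside all 24484 kept probes under the same scaling. With median centring 15558 of these were lower and 768 higher, and with the processed signals 1233 were lower and 1313 higher. An offset of 0 gave 4177 lower and 4007 higher. With loess the shares were those given above, 20.5% lower and 18.6% higher. The counts that follow are those with loess.

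Among the other JAKs and STATs, 5 of the 7 measured were lower and none was higher, with a median log2 ratio of -0.21. Only 2 of the 7 were lower with the processed signals, and 2 with an offset of 0. Stat3, which carries signals of the interleukin-6 family, had ratios of -0.49 and -0.58 and fell (-0.54 ± 0.06, limma adjusted p = 1.39e-05), but its second probe stood at -0.06. Jak1, the kinase of interferon and many interleukin receptors, fell (-0.39 ± 0.05, adjusted p = 2.42e-04), with its other probes at -0.39 and -0.14. Smaller falls were seen for Stat2 (-0.23 ± 0.17) and Jak3 (-0.21 ± 0.04), and Jak3 turned to 0.04 with the processed signals.

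Of the other SOCS and PIM family members, 1 of the 5 measured was lower and none was higher, with a median of 0.13. Socs7 was that one, with ratios of -0.20 and -0.21 (limma adjusted p = 0.0183).

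Among the listed negative regulators of the pathway, 9 of 14 were lower and 1 was higher, with a median of -0.21. Some of the lower calls were opposed by another probe of the gene, at 0.26 and 0.21. Other kept probes of the remaining lower genes lay below 0. With the processed signals 4 of 14 were lower and 0 higher. Dok2, a docking protein that dampens RAS signalling, had ratios of -1.03 and -0.99 and fell (-1.01 ± 0.02, limma adjusted p = 2.66e-08). The inositol phosphatase gene Inpp5d, which encodes SHIP1, fell by 0.55 (adjusted p = 1.08e-05). Sh2b3 encodes LNK, an adaptor that restrains JAK2, and fell (-0.50 ± 0.15), as did Cbl, a ubiquitin ligase that promotes degradation of active receptors (-0.50 ± 0.01). The second probes of Sh2b3 and Cbl stood at -0.38 and -0.19. Pias4, a SUMO ligase of the PIAS family, was the one that rose (0.31 ± 0.12, adjusted p = 0.00197).

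The adaptors and the PI3K-AKT and RAS branch were mixed, with 4 higher and 5 lower of 19 measured and a median of 0.01, and 0 higher and 2 lower with the processed signals. Grb2, the adaptor that links receptors to RAS, had ratios of -0.63 and -0.84 and fell (-0.74 ± 0.15, limma adjusted p = 1.39e-06), and its second probe stood at -0.70. Pik3cd (-0.57 ± 0.13), Akt1 (-0.32 ± 0.09) and Lyn (-0.31 ± 0.03), all kinases of this branch or of the receptor, fell by their brightest probe, but their second probes stood at 0.08, 0.14 and 0.11. The 4 higher genes had smaller ratios, between 0.20 and 0.31 by the brightest probe. Their other kept probes lay between -0.07 and 0.61.

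Of the other cytokine receptors that use JAK and STAT5, 10 of 15 were measured, with 4 higher, 2 lower and a median of 0.13, and with 2 higher and 1 lower from the processed signals. Il2rg, the common gamma chain, fell (-0.56 ± 0.04, limma adjusted p = 8.30e-06), and Il5ra had ratios of -0.41 and -0.09 (-0.25 ± 0.23, adjusted p = 0.0178). The higher calls of Csf2rb and Csf2rb2, which encode beta chains of the interleukin-3 receptor family, are given without a fold because the control channel was saturated on both arrays. The other kept Csf2rb probes stood at -0.14 and -0.05, so its higher call rests on the saturated probe alone. Without the saturated probes 2 of 8 receptors were higher and 2 were lower.

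Genes known as STAT5 targets outside the SOCS family did not move one way: 5 were higher and 7 lower of 15 measured, with a median of -0.12, and 2 were higher and 3 lower with the processed signals. Erfe, the erythroid hormone that lowers hepcidin, had ratios of 1.17 and 1.38 and rose (1.27 ± 0.15, limma adjusted p = 5.68e-09), while its second probe stood at -0.16. Ccnd2, a D-type cyclin, had ratios of -0.75 and -0.84 and fell (-0.80 ± 0.07, adjusted p = 2.86e-07), and its other probes stood at -1.13 and -1.18. Osm, a cytokine gene induced by STAT5, fell by its brightest probe (-0.40 ± 0.06), with the second at 0.01. Ccnd3, the cyclin of late erythroid divisions, rose (0.39 ± 0.16, adjusted p = 4.74e-04), but stood at -0.24 with median centring.

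**Figure D5:**
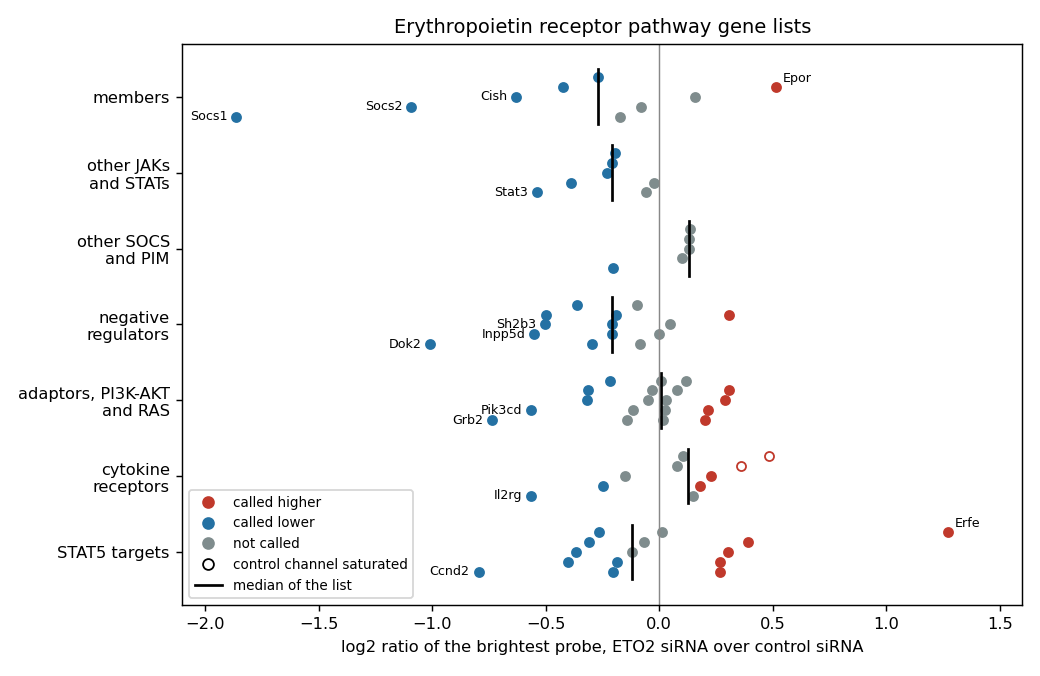
Each point is 1 gene by its brightest kept probe, placed by its mean log2 ratio of ETO2 siRNA over control siRNA, with 1 line of points per gene list, the list's median as a bar and open symbols where the control channel was saturated. Among the 7 lists drawn, which leave out the cell type markers, the members have the lowest point, Socs1 at -1.86, and the STAT5 targets the highest, Erfe at 1.27.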

How the data were processed

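Total RNA of 2 arrays was compared, each with ETO2 siRNA in Cy3 and control siRNA in Cy5, 1.2 µg per dye per the labels' protocols. The deposited scanner files hold intensity values made with Agilent Feature Extraction 9.1.3.1, per the file headers. The authors' deposited ratio table holds log10 red over green. It equals the scanner's own log ratio to 3 digits on all 45018 features, and its column medians are 0. No genome build for the array is given in the sources used here.

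Spot mean signals were corrected with normexp (offset 50) and median backgrounds, normalized by loess without control spots, and averaged per probe. A probe was kept if 1 channel or more stood well above background on both arrays (24484 of 41174). limma 3.58.1 in R 4.3.3 tested the ratio against 0 (1 residual and 14 prior degrees of freedom, prior SD 0.0925). A sign permutation of 2 arrays cannot go below p = 0.5. The number of arrays limits the precision. Median raw signals were 77.5 to 82.8 (Cy3) and 105 (Cy5). Saturated spots numbered 11 to 39 in Cy3 and 471 to 495 in Cy5. The test was checked on simulated data with independent noise and no dye effect on single probes. That check cannot speak to the single dye orientation or to whether the spread between the arrays is technical.

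The members and gene lists were chosen with earlier results of these data known, and 1 erythroid marker is not reported here. The genes named are all members and, per list, up to 4 called genes with the largest ratio of 1 sign on both arrays and up to 2 called against the list's median.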

Additional observations from a re-analysis of the deposited data

How the results depend on the processing

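Socs1, Socs2 and Cish were called lower under all 12 ways of processing the arrays that gave a test (11 for the second Socs2 probe, which is not used where each gene has 1 probe), and Stat5b probe 1 and Socs3 under 10 of 12. Epor was called higher under 9 of 12. With processed signals no member probe was higher (0), against 1313 higher and 1233 lower of all kept probes. The authors' deposited ratio table likewise gave 0, with 1236 and 1172. There Epor (adjusted p = 0.0540), Stat5b probe 1 (0.0568) and Socs3 (0.142) missed the threshold. Both sources turned Jak2 probe 1 to 0.053 and Pim1 probe 2 to -0.091, neither called. With median centring, 0 member probes were higher and 12 lower, and of all kept probes 768 were higher and 15558 lower, against 4557 and 5030 with loess. That scaling put the median of all kept probes at -0.28 and turned Epor to -0.080, Jak2 probe 2 to -0.046, Stat5b probe 2 to -0.27, Stat5b probe 3 to -0.21, Pim1 probe 1 to -0.33 and Pim1 probe 2 to -0.21. Relative to that median, Epor stood 0.21 higher. The cause of these shifts was not tested. A variance trend with brightness gave Jak2 probe 1 an adjusted p of 0.0479. Of 149 tested alternative values of single probes, 130 kept sign and call, 10 changed sign and 9 changed the call alone. Settings that change only the probes tested or the variance model leave each ratio as it was, so there only the call could change. The deposited ratio table nearly repeats the processed signals. These tallies, and the counts over the 12 ways, therefore rest on fewer separate scalings. A running median over brightness was chosen after seeing the data and gave 4487 probes higher and 4625 lower. Leaving out an array gives a value with no test. The 2 arrays, the single dye orientation and the dim probes of Jak2, Stat5b and Pim1 limit what can be said, and the offset of 50 shrinks the ratios of dim spots.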
